A study of Mus musculus with 8 samples.

Results

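The genes described here are 10 transcripts of the tumour necrosis factor (TNF) and NF-κB system and of the cytokines IL-6 and IL-10: Tnf, Il6, Il10, Tnfaip2, Tnfaip3, Nfkbia, Nfkbiz, Nfkb1, Nfkb2 and Relb. They were chosen by gene symbol, and all 10 were found among the 24786 genes of the count files. Their RNA was measured in 8 libraries of polyA RNA from mouse liver macrophages on the C57BL/6 strain, with 2 libraries in each of 4 groups. Resident Kupffer cells form 2 of the groups and macrophages derived from monocytes (MoM) the other two, in wild-type (WT) mice and in mice labelled dnTGFβRII (TG), a transgenic model of cholangitis. The transgene encodes a dominant-negative form of TGF-β receptor II, and in the line known by this name it is driven in T cells by the Cd4 promoter, so that the macrophages themselves are not its intended target. The labels give no age, sex or treatment, nor the number of animals behind a replicate. P-values therefore measure the spread between these libraries only.

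NF-κB is a family of dimeric transcription factors built from Rel subunits. In resting macrophages inhibitors of the IκB family hold the dimers in the cytoplasm; signals from TNF or Toll-like receptors activate the IκB kinase (IKK), which marks the inhibitor for destruction and lets the dimer enter the nucleus. The dimers then switch on cytokine genes such as Tnf and Il6 and, in the same wave, genes that end the signal, among them Nfkbia and Tnfaip3. A slower, non-canonical branch runs through the kinase encoded by Map3k14 and the subunits encoded by Nfkb2 and Relb. In the liver, Kupffer cells are a main source of TNF, IL-6 and the restraining cytokine IL-10.

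Promoter windows of 4 genes are shown, which do not cover every pattern described next. RNA of Nfkb2 was higher in MoM, RNA of Nfkbia and Tnf varied between replicates, and RNA of Il6 overlapped between the subsets. Tnfaip2, whose RNA was lower in MoM, and Tnfaip3 also had windows, not shown, without the stricter motif given below. Each window runs from 250 bases before to 50 bases after the RefSeq start (GRCm38.p6), 5′ to 3′ on the strand of the gene, and capitals mark matches on either strand to a loose form of the κB motif, which is GGG, any 5 bases, then CC.
Nfkb2, chr19:46304487-46304786, plus strand: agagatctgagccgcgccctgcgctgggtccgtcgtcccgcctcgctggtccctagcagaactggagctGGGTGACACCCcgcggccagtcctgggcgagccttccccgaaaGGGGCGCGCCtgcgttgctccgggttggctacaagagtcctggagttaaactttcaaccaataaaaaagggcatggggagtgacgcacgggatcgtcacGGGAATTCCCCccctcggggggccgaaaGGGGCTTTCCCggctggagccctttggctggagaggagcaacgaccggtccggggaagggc
Nfkbia, chr12:55492598-55492897, minus strand: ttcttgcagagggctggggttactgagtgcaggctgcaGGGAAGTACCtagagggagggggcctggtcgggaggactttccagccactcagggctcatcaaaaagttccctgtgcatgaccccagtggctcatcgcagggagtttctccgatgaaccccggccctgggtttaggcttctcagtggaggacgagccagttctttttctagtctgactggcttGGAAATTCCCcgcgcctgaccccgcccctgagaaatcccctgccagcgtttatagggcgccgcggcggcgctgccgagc
Tnf, chr17:35201958-35202257, minus strand: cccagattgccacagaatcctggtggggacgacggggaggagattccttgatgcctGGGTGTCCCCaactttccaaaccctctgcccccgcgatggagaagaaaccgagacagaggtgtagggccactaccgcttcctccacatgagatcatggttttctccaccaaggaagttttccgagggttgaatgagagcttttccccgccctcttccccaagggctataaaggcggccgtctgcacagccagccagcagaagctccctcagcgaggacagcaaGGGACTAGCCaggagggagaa
Il6, chr5:30012864-30013163, plus strand: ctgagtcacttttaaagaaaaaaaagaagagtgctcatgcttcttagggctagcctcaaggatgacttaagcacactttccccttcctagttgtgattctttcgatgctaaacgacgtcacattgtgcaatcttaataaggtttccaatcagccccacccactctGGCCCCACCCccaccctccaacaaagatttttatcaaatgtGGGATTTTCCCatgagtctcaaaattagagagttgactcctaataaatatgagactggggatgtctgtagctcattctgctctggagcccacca
RefSeq windows were present for 6 of the 10 genes, 9 windows in all. The 6 are counted here by gene and the background by window, so a gene with several windows had more chances of a match. All 6 held the loose form, as did 50.8% of the 32817 windows of all genes. A stricter form, GGGA, any base, TT, any base, then CC, was found in windows of 3 of the 6, against 1.2% of all windows. These matches were GGGAATTCCC at position -39 of Nfkb2, GGAAATTCCC (on the reverse strand) at -29 of Nfkbia and GGGATTTTCC at -44 of Il6, counted from the RefSeq start of each window. For Nfkb2 that start lies inside the gene span of GENCODE M21 given later, which begins upstream. Other starts of Nfkb2 held GGGACTTTCC. The looser motif contains the stricter one, so the counts overlap, and a match shows letters, not binding.

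Libraries held 26190194 to 30308132 counts, and levels are given as CPM, the standard library-scaled count, after TMM scaling. Before TMM scaling 1 count was 0.0330 to 0.0382 CPM. Some libraries carried RNA of other cells. Summed over 14 Kupffer cell markers the level was 41480 to 43668 CPM in 3 Kupffer libraries and 21102 CPM in Kupffer TG replicate 2. It was 1288 to 2697 CPM in 3 MoM libraries but 13498 CPM in MoM WT replicate 1. Single markers in this sum differed between the Kupffer genotypes. Marco stood at 5492 and 3309 CPM in TG against 687 and 743 CPM in WT. Clec4f stood at 6558 and 2736 CPM in TG against 11553 and 12314 CPM in WT. Of the 14, 2 had a positive TG against WT log2 fold change in Kupffer cells, and 0 were called. Summed over 11 endothelial markers, Kupffer TG replicate 2 had 9762 CPM and MoM WT replicate 1 had 6174 CPM, against 608 to 2735 CPM in the other 6 libraries, and no endothelial marker was at 0 in any library. Summed over 10 neutrophil markers, MoM TG replicate 2 had 4229 CPM against 124 to 603 CPM elsewhere. Summed over 10 dendritic cell markers, the MoM libraries had 1522 to 2495 CPM and the Kupffer libraries 104 to 297 CPM. How the macrophages were isolated is not stated in the labels. The part of other cells in the results was not tested, and in such bulk RNA fewer cells of a type cannot be told apart from less RNA per cell.

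Among the 10 genes, the Rel subunits Nfkb1, Nfkb2 and Relb were the ones that separated the macrophage subsets upward: all 4 MoM libraries lay above all 4 Kupffer libraries for these 3 genes. Tnfaip2 was the one that lay below in all 4. The other 6, which include the cytokines and the fast feedback inhibitors, overlapped between subsets and differed up to 8.01-fold between replicates of a group. Of the 15254 genes tested, 14.8% had all MoM libraries above all Kupffer libraries and 11.4% had them below. After correction over all genes edgeR called 0 of the 10 in WT, where 1.17% of tested genes were called (1.11% higher in MoM and 0.059% lower). In TG it called 1 of the 10, Nfkb2, where 1.84% were called higher and 0.656% lower. DESeq2 called 3 of the 10 higher and 1 lower in each genotype: Nfkb1, Nfkb2 and Relb higher in both, Tnfaip2 lower in WT and Il10 lower in TG. Its background was 11.7% higher and 6.79% lower in WT, and 8.36% higher and 8.58% lower in TG.

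Within WT the groups did not overlap for 7 of the 10 genes, with 6 higher in MoM (38.5% of all tested genes) and 1 lower (29.7%). Within TG they did not overlap for 5, with 3 higher in MoM (29.1% of all tested genes) and 2 lower, Il10 and Tnfaip2 (23.8%).

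**Figure D1:**
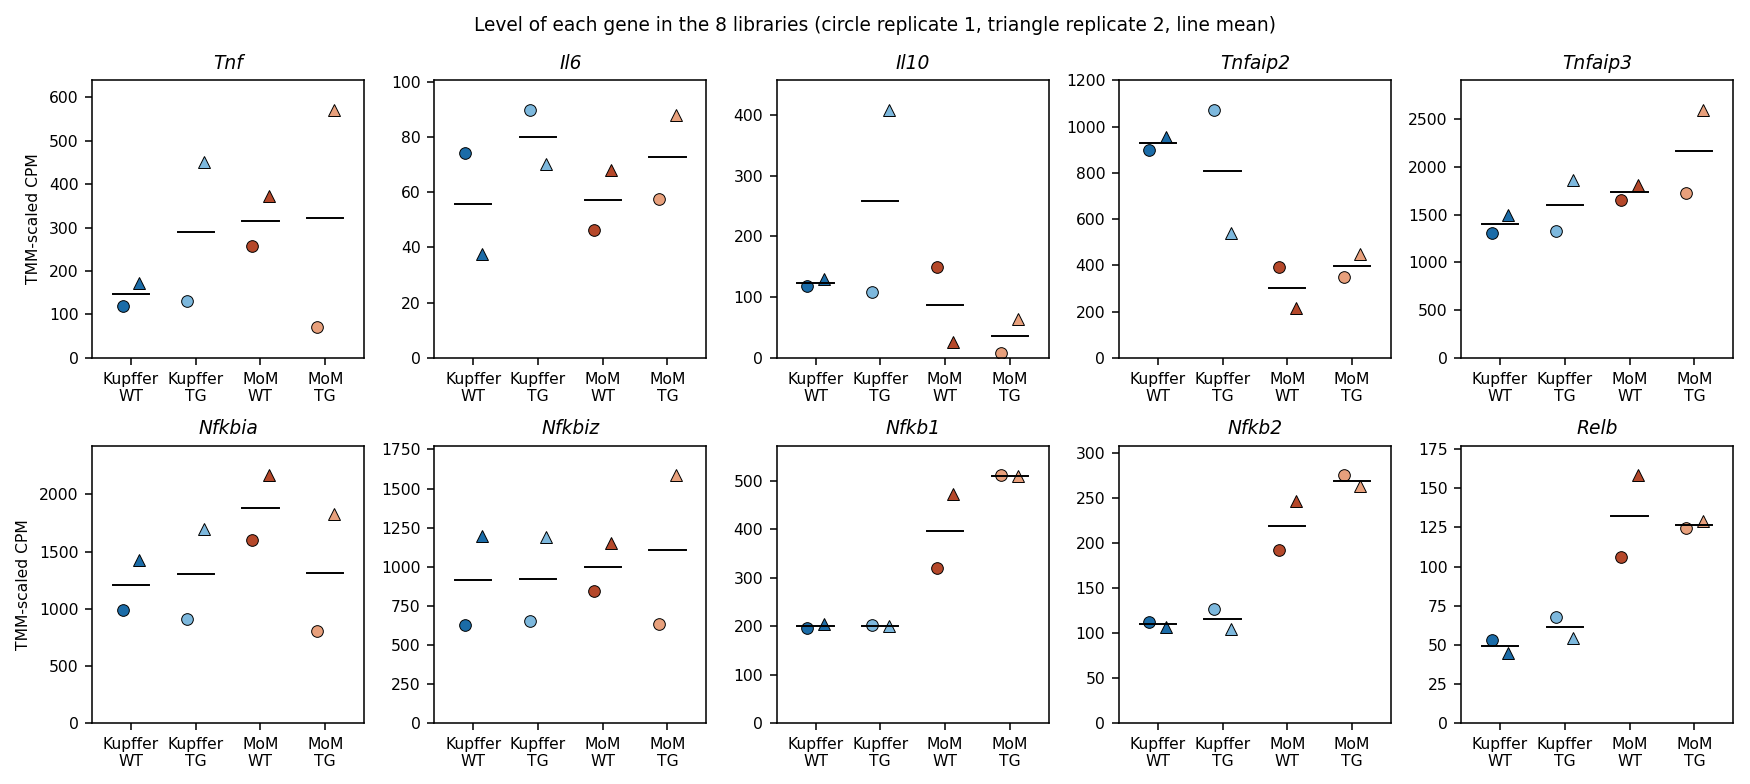
Level of each of the 10 genes (vertical axis, TMM-scaled CPM) in the 4 groups, with a circle for replicate 1, a triangle for replicate 2 and a line at the mean of both. Nfkb1, Nfkb2 and Relb are higher and Tnfaip2 lower in every MoM library, while Tnf reaches from 71.7 to 570.4 CPM within MoM TG.

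Nfkb1 (chromosome 3, 135584655 to 135691547, GRCm38) encodes the precursor of a canonical NF-κB subunit. It stood at 202 and 201 CPM in TG Kupffer cells, at 196 and 204 CPM in WT Kupffer cells, at 511 and 509 CPM in MoM of TG mice and at 320.4 and 473 CPM in WT MoM. The 4 Kupffer libraries were nearly level, and the lowest MoM library was replicate 1 of WT, the MoM library that carried Kupffer markers. MoM exceeded Kupffer cells 2.53-fold in TG (log2 1.34 ± 0.25 SE, 95% interval 0.75 to 1.93, adjusted p = 0.0511 in edgeR) and 1.98-fold in WT (log2 0.99 ± 0.24, 95% interval 0.40 to 1.58, adjusted p = 0.0986). Neither difference was called. In TG it passed when either WT MoM library was left out (adjusted p = 0.0242 without replicate 1 and 0.0239 without replicate 2, with 0.000475 to 0.246 over its alternatives). Without MoM WT replicate 1 the WT difference was 1.23 (adjusted p = 0.0435, with 0.0167 to 0.418 over its alternatives).

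Nfkb2 (chromosome 19, 46304320 to 46312385) encodes the precursor that the non-canonical branch processes. It stood at 127 and 105 CPM in TG Kupffer cells and at 276 and 264 CPM in TG MoM, 2.32-fold higher in MoM (log2 1.22 ± 0.21, 95% interval 0.70 to 1.73, adjusted p = 0.0476). This was a call, in a comparison in which 2.5% of all tested genes were called, and it lay close to the threshold: the adjusted p ranged from 0.000789 with DESeq2 to 0.242 without MoM TG replicate 1, and it was above 0.05 in 11 of 14 alternatives. In WT it stood at 113 and 107 CPM in Kupffer cells and at 192 and 247 CPM in MoM, 2.00-fold higher (log2 1.00 ± 0.21, 95% interval 0.48 to 1.51, adjusted p = 0.0797; 1.17% of tested genes called). Under all alternatives run the sign was positive in both genotypes.

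Relb (chromosome 7, 19606217 to 19629438), the partner of the processed Nfkb2 product, stood at 67.8 and 54.8 CPM in TG Kupffer cells, at 53.4 and 44.9 CPM in WT Kupffer cells, with 124 and 129 CPM for TG MoM and at 106 and 158 CPM in WT MoM. No MoM library overlapped a Kupffer library. The difference was log2 1.43 ± 0.25 in WT (2.69-fold, 95% interval 0.81 to 2.04, adjusted p = 0.0619) and 1.05 ± 0.25 in TG (2.07-fold, 95% interval 0.44 to 1.66, adjusted p = 0.0765), and neither was called. In WT it was called when Kupffer TG replicate 1 (adjusted p = 0.0357), Kupffer TG replicate 2 (0.0332) or MoM WT replicate 1 (0.0337) was left out, within a range of 0.00112 to 0.392 over its alternatives. In TG it was called without MoM WT replicate 1 (adjusted p = 0.0478) or replicate 2 (0.0460), within a range of 0.0259 to 0.307. The summed dendritic cell markers, given above, moved with these 3 subunits, though of the 10 markers 9 were higher in MoM in WT and 6 in TG. So did B cell markers, whose 9 genes summed to 119.6 to 254 CPM in the MoM libraries and 23.7 to 46.8 CPM in the Kupffer libraries, with 1 of the 9 at 0 in Kupffer WT replicate 1 and none at 0 elsewhere. The part of either cell type in these differences, and in those of Traf1, Map3k14 and Rel given later, was not tested.

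The proportion of Nfkb2 to Nfkb1 varied less than that of Relb to Nfkb1. Counts of Nfkb2 per count of Nfkb1 lay between 0.518 and 0.629 in all 8 libraries, and counts of Relb per count of Nfkb1 between 0.22 and 0.336. The Relb proportion was 0.244 and 0.253 in TG MoM and 0.331 and 0.334 in WT MoM, without overlap; these ratios carry no test. Nfkb1 and Nfkb2 were among the genes with the least replicate spread: their pooled within-group SD was 0.20 and 0.16 on the log2 scale, and 18.9% and 12.1% of tested genes had a smaller one.

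**Figure D2:**
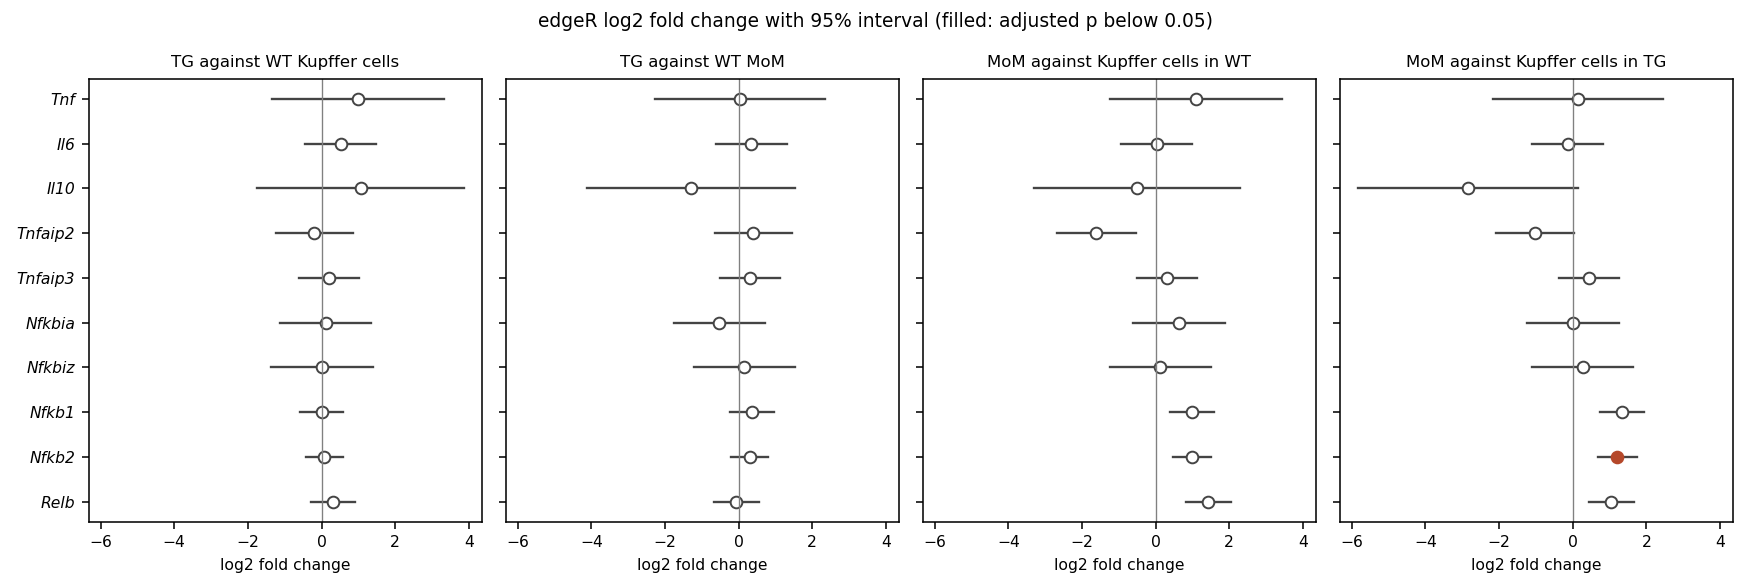
Log2 fold change of each gene (horizontal axis) with its 95% interval from the edgeR fit in 4 comparisons, filled where the adjusted p is below 0.05. Intervals of Nfkb1, Nfkb2 and Relb lie above 0 in both MoM against Kupffer panels, that of Nfkb2 in TG is the filled one, and all 10 intervals include 0 in both TG against WT panels.

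The 4 genes of feedback and TNF response other than the subunits fell into 2 kinds. Nfkbia (chromosome 12, 55489410 to 55492647), the IκB protein that is resynthesised to shut NF-κB off, stood at 910.2 and 1695 CPM in TG Kupffer cells, at 987 and 1429 CPM in WT Kupffer cells, at 803 and 1827 CPM in MoM of TG mice and at 1603 and 2166 CPM in WT MoM. The lowest and one of the highest libraries were replicates of the same group, TG MoM. MoM minus Kupffer cells was log2 0.64 ± 0.52 in WT (adjusted p = 0.447) and 0.01 ± 0.52 in TG (adjusted p = 0.99), with a 95% interval in TG of -1.23 to 1.26.

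Nfkbiz (chromosome 16, 55811375 to 55838899) encodes a nuclear IκB protein that Il6 and other secondary genes need. It stood at 652 and 1189 CPM in TG Kupffer cells, at 629 and 1197 CPM in WT Kupffer cells, at 632 and 1584 CPM in MoM of TG mice and at 844 and 1149.9 CPM in WT MoM. All 4 groups overlapped. Counts of Nfkbiz per count of Nfkbia varied less, between 0.526 and 0.867, while Nfkbiz itself varied up to 2.51-fold between replicates.

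Tnfaip3 (chromosome 10, 19000910 to 19015657), a ubiquitin-editing enzyme that blocks signalling upstream of IKK, was abundant throughout. It stood at 1331 and 1866 CPM in TG Kupffer cells, at 1305 and 1495 CPM in WT Kupffer cells, at 1731 and 2595 CPM in MoM of TG mice and at 1652 and 1815 CPM in WT MoM. The WT groups did not overlap, with MoM higher, as for 38.5% of all tested genes in that comparison. The fitted difference was log2 0.31 ± 0.34 in WT (adjusted p = 0.577) and 0.44 ± 0.34 in TG (adjusted p = 0.471).

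Tnfaip2 (chromosome 12, 111442469 to 111455018), a TNF-inducible gene whose product shapes membrane protrusions, ran the other way. It stood at 1072 and 542 CPM in TG Kupffer cells, at 901 and 957 CPM in WT Kupffer cells, at 350.5 and 448 CPM in MoM of TG mice and at 394 and 214 CPM in WT MoM. The one Kupffer library far below the others was TG replicate 2, which also had the lowest Kupffer marker sum of the 4. The lowest MoM library was WT replicate 2, which had the lowest sum of all. This order did not hold throughout. MoM WT replicate 1 had 13498 CPM of these markers with Tnfaip2 at 394 CPM. MoM TG replicate 2 had 2079 CPM of them and the most Tnfaip2 of the MoM libraries (448 CPM). The part of Kupffer cell RNA in the Tnfaip2 levels was not tested. MoM minus Kupffer cells was log2 -1.61 ± 0.44 in WT (95% interval -2.68 to -0.54, adjusted p = 0.11) and -1.02 ± 0.44 in TG (95% interval -2.07 to 0.04, adjusted p = 0.212). Without Kupffer TG replicate 2 and MoM WT replicate 1 both differences passed, at -2.16 in WT (adjusted p = 0.0103, with a largest value of 0.406 over its alternatives) and -1.54 in TG (adjusted p = 0.0203, with a largest value of 0.581).

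Tnf (chromosome 17, 35199381 to 35202007), the prototype inflammatory cytokine, had one of the widest spreads between replicates. It stood at 130.0 and 450.4 CPM in TG Kupffer cells, at 120.0 and 172 CPM in WT Kupffer cells, at 71.7 and 570.4 CPM in MoM of TG mice and at 257 and 372 CPM in WT MoM. The lowest and the highest of all 8 libraries were both TG MoM, a 7.96-fold difference within a group. The difference of MoM from Kupffer cells was log2 1.10 ± 0.97 in WT (95% interval -1.23 to 3.44, adjusted p = 0.484) and 0.15 ± 0.96 in TG (95% interval -2.17 to 2.46, adjusted p = 0.938). The interval in TG includes 4-fold changes in either direction, and the sign turned on single libraries, from -2.02 without MoM TG replicate 2 and -0.54 without Kupffer TG replicate 1 to 1.17 without Kupffer TG replicate 2.

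Il10 (chromosome 1, 131019845 to 131024974), the anti-inflammatory cytokine, stood at 109 and 408 CPM in TG Kupffer cells, at 119 and 129 CPM in WT Kupffer cells, at 7.94 and 63.6 CPM in MoM of TG mice and at 149 and 26.4 CPM in WT MoM. Of the MoM libraries the one at the level of Kupffer cells was WT replicate 1, while the other 3 lay below every Kupffer library. That library held 13498 CPM of Kupffer markers and 6174 CPM of endothelial markers. The library with the most Il10, Kupffer TG replicate 2, held 21102 CPM of Kupffer markers, the least of the Kupffer libraries, and 9762 CPM of endothelial markers. The part of other cells in the Il10 levels was not tested. The difference in TG was log2 -2.85 ± 1.24 (95% interval -5.84 to 0.13, adjusted p = 0.215 in edgeR and 0.0334 in DESeq2, with a largest value of 0.529 over the alternatives). In WT it was -0.50 ± 1.16 (adjusted p = 0.802), and -2.24 without MoM WT replicate 1 (adjusted p = 0.361).

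In both TG groups the proportion of Il10 to Tnf differed less between replicates than either gene did. Kupffer libraries held 0.749 to 0.991 counts of Il10 per count of Tnf, in TG replicate 2 too, where both genes were more than 3-fold above replicate 1. MoM libraries held 0.111 and 0.112 in TG and 0.071 in WT replicate 2, but 0.581 in WT replicate 1. This ratio was singled out after the values were seen and carries no test. The 4 libraries with the most Tnf were also the 4 with the most endothelial marker RNA (2495 to 9762 CPM, against 608 to 1171 CPM in the other 4) and hepatocyte marker RNA (534 to 966 CPM, against at most 496 CPM). Cholangiocyte markers gave the same 4 (37.9 to 353 CPM, against at most 21.8 CPM, with 3 to 5 of 8 genes at 0 there). Markers of T cells, NK cells, B cells, neutrophils and stellate cells did not. The library with the most Tnf, MoM TG replicate 2, also had the most neutrophil marker RNA (4229 CPM). Of 21 dissociation stress genes, the summed level was highest in Kupffer WT replicate 2 (38776 CPM, with Tnf at 172 CPM). It was lowest in MoM WT replicate 2 (17462 CPM, with Tnf at 372 CPM). The part of these transcripts in the Tnf levels was not tested.

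**Figure D3:**
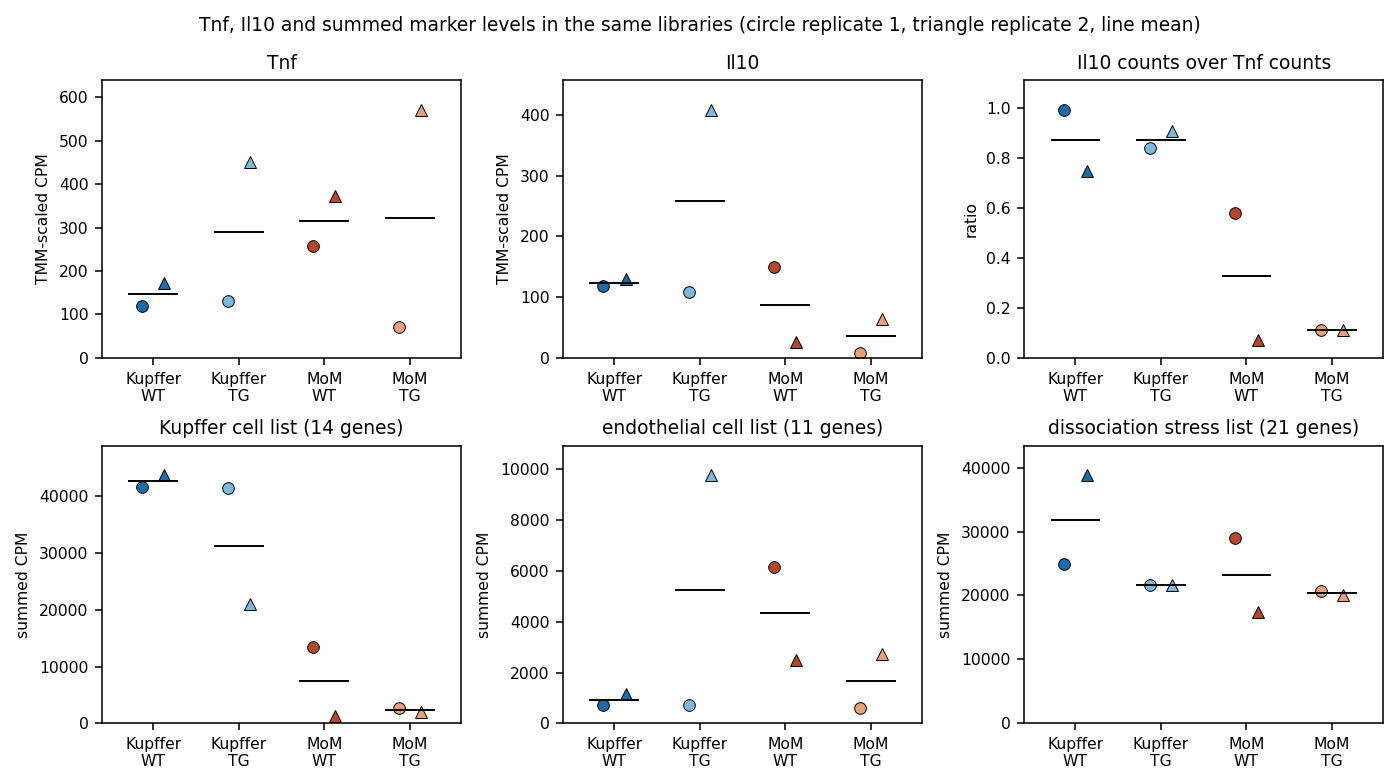
Tnf and Il10 (CPM), the ratio of their counts, and the summed CPM of Kupffer cell, endothelial and dissociation stress lists in the 4 groups (circle replicate 1, triangle replicate 2, line mean). Kupffer TG replicate 2 is high for Tnf, Il10 and endothelial markers, and MoM WT replicate 1 holds 13498 CPM of Kupffer markers and an Il10 to Tnf ratio of 0.581.

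Il6 (chromosome 5, 30013114 to 30019981), the cytokine that drives the hepatic acute-phase response, did not separate the subsets. It stood at 89.7 and 70.2 CPM in TG Kupffer cells, at 74.0 and 37.6 CPM in WT Kupffer cells, at 57.7 and 87.9 CPM in MoM of TG mice and at 46.2 and 68.1 CPM in WT MoM. The subsets overlapped in both genotypes, and MoM minus Kupffer cells was log2 0.03 ± 0.40 in WT (95% interval -0.93 to 1.00, adjusted p = 0.963) and -0.14 ± 0.40 in TG (95% interval -1.10 to 0.83, adjusted p = 0.851).

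Per kilobase of exon, the order of mean levels in WT Kupffer cells ran from Nfkbia (750.3 ± 194 SD CPM per kb, n = 2) through Tnfaip3 (194 ± 18.6), Tnfaip2 (186 ± 7.98) and Nfkbiz (182 ± 80.1) to Il10 (94.7 ± 5.46) and Tnf (89.2 ± 22.6). Nfkb2 (24.0 ± 0.868), Il6 (23.0 ± 10.6), Nfkb1 (16.6 ± 0.452) and Relb (12.7 ± 1.55) came last. Ranges of 1 SD overlapped among Tnfaip3, Tnfaip2 and Nfkbiz, between Tnf and both Nfkbiz and Il10, and between Il6 and each of Nfkb2, Nfkb1 and Relb, so these orders are not distinguishable. In WT MoM, Nfkbia (1170.4 ± 247) again came first and Il6 (23.5 ± 6.40) had the lowest mean, and Nfkb2 (47.9 ± 8.42), Relb (34.0 ± 9.47) and Nfkb1 (32.9 ± 8.96) lay between Tnfaip2 (61.0 ± 25.6) and Il6. There the range of 1 SD of Il6 overlapped those of Nfkb1, Relb and Il10 (67.0 ± 66.2), and those of Nfkb2, Relb and Nfkb1 overlapped each other and that of Tnfaip2. Lengths were the merged exons of GENCODE M21, 12061 bases for Nfkb1, so that levels of genes with long rare exons are understated.

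The TG against WT comparisons ask what the disease model does within a subset. None of the 10 genes was called in Kupffer cells or in MoM, where 0% of the 15254 genes were called by edgeR. At an unadjusted p under 0.05 the counts were 906 genes in Kupffer cells and 987 in MoM, and 0 of the 10 in either. DESeq2 called 251 and 141 genes (1.79% and 1.01% of those it tested), and 0 of the 10. In Kupffer cells 9 of 10 log2 fold changes were positive (median 0.15, against 0.03 for all tested genes), but 5 of 10 without TG replicate 2, where Tnf, Il10, Tnfaip3, Nfkbia and Nfkbiz were negative. Tnf had 0.99 ± 0.97 and Il10 1.06 ± 1.17, and -0.12 and -0.14 without that library. The narrowest intervals belonged to Nfkb2 (0.08, -0.43 to 0.59) and Nfkb1 (0.01, -0.58 to 0.59), which include changes of up to about 1.5-fold. That is not a limit of detection: in the same fit Nfkb2 was 2.00-fold higher in WT MoM than in WT Kupffer cells and was not called. Relb was the only one of the 10 whose Kupffer groups did not overlap, with TG higher (0.32 ± 0.25), as for 16.7% of all tested genes (17.7% had TG lower).

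In MoM, Nfkb1 and Nfkb2 were the 2 genes whose groups did not overlap, both higher in TG (0.36 ± 0.24, adjusted p = 0.827, and 0.30 ± 0.21, adjusted p = 0.831), as for 19.2% of all tested genes (20% had TG lower). Il10 had -1.29 ± 1.17, which turned to 0.45 when WT replicate 1 was left out. Tnf had 0.03 ± 0.96, and values from -2.13 without TG replicate 2 to 0.87 without TG replicate 1. The difference between the TG effects of the subsets (MoM minus Kupffer cells, the interaction) was called for 0 of the 10 genes and for 0% of all genes by edgeR (980 genes at an unadjusted p under 0.05; 47 genes, 0.289% of those tested and none of the 10, by DESeq2). Its largest value among the 10 was -2.35 ± 1.65 for Il10 (adjusted p = 0.674), which was -4.52 to -0.61 with single libraries left out and turned to 0.53 without Kupffer TG replicate 2 and MoM WT replicate 1 together. The authors' deposited table of 179 genes for TG against WT holds 0 of the 10.

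Around these genes, 82 others of the pathway were read from lists of receptors, IKK signalling, Rel and IκB relatives, feedback inhibitors, targets and cytokine response genes. In WT, 2 of the 82 were called higher in MoM and 0 lower, where 1.11% of all tested genes were called higher and 0.059% lower (median log2 0.23, against 0.11 for all tested genes). In TG 5 of the 82 were called higher and 0 lower, where 1.84% of all tested genes were called higher and 0.656% lower (median 0.43, against -0.04). In both TG against WT comparisons 0 of the 82 were called.

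The 2 called in WT were feedback and adaptor genes with little RNA in Kupffer cells. Traf1, a TNF receptor adaptor, stood at 2.91 and 2.39 CPM in WT Kupffer cells and at 65.9 and 142 CPM in WT MoM (log2 5.29 ± 0.81, adjusted p = 0.0475). Tnip3, a Tnfaip3-binding inhibitor, stood at 1.54 and 0.896 CPM in WT Kupffer cells and at 19.4 and 61.4 CPM in WT MoM (5.04 ± 0.67, adjusted p = 0.0369). In TG Kupffer cells Tnip3 had 5.10 and 4.02 CPM, and it had the smallest p of the lists in TG against WT Kupffer cells (1.90 ± 0.60, adjusted p = 0.730), before N4bp1 (0.54 ± 0.17) and Tnip1 (0.99 ± 0.33), which did not pass either.

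In TG, 3 of the 5 called genes belong to signalling toward IKK. Map3k14, the kinase of the non-canonical branch, rose from 20.8 and 27.0 CPM in Kupffer cells to 250.2 and 134 CPM in MoM (log2 3.01 ± 0.49, adjusted p = 0.0433). Ikbkb, a catalytic subunit of IKK, rose from 103 and 86.1 to 276 and 225 CPM (1.41 ± 0.23, adjusted p = 0.0425). Irak2, a kinase of Toll-like receptor signalling, rose from 62.1 and 52.1 to 162 and 176 CPM (1.57 ± 0.27, adjusted p = 0.0476). Bcl6, a transcriptional repressor that opposes NF-κB at shared sites, rose from 23.6 and 24.0 to 155 and 119.5 CPM (2.53 ± 0.27, adjusted p = 0.0248), and N4bp1, an inhibitor of NF-κB signalling, from 79.8 and 81.6 to 164 and 160.3 CPM (1.01 ± 0.17, adjusted p = 0.0467). Of the dissociation stress genes, 1 of 21 was called in TG, Nr4a1 (2.14 ± 0.38), where 1.84% of all tested genes were called higher and 0.656% lower.

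Other members of the Rel and IκB families, given here after their values were seen, were positive in MoM against Kupffer cells in both genotypes for 6 of 6 genes, with 0 called. Rel, which encodes another NF-κB subunit, stood at 150.1 and 78.4 CPM in TG Kupffer cells and at 594 and 447 CPM in TG MoM (log2 2.19 ± 0.49, adjusted p = 0.0688). In WT it stood at 169 and 126 CPM in Kupffer cells and at 169 and 358 CPM in MoM, where replicate 1 was level with the higher WT Kupffer library (0.84 ± 0.47, adjusted p = 0.288). Nfkbie, another cytoplasmic inhibitor, had 1.64 ± 0.30 in TG (adjusted p = 0.0505) and 0.83 ± 0.29 in WT (adjusted p = 0.158). Nfkbid, a nuclear IκB protein, had 1.32 ± 0.45 in TG (adjusted p = 0.136) and 1.74 ± 0.46 in WT (adjusted p = 0.104). Rela, the main canonical partner of the Nfkb1 product, had 0.51 ± 0.22 in TG (adjusted p = 0.224) and 0.55 ± 0.22 in WT (adjusted p = 0.191).

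**Figure D4:**
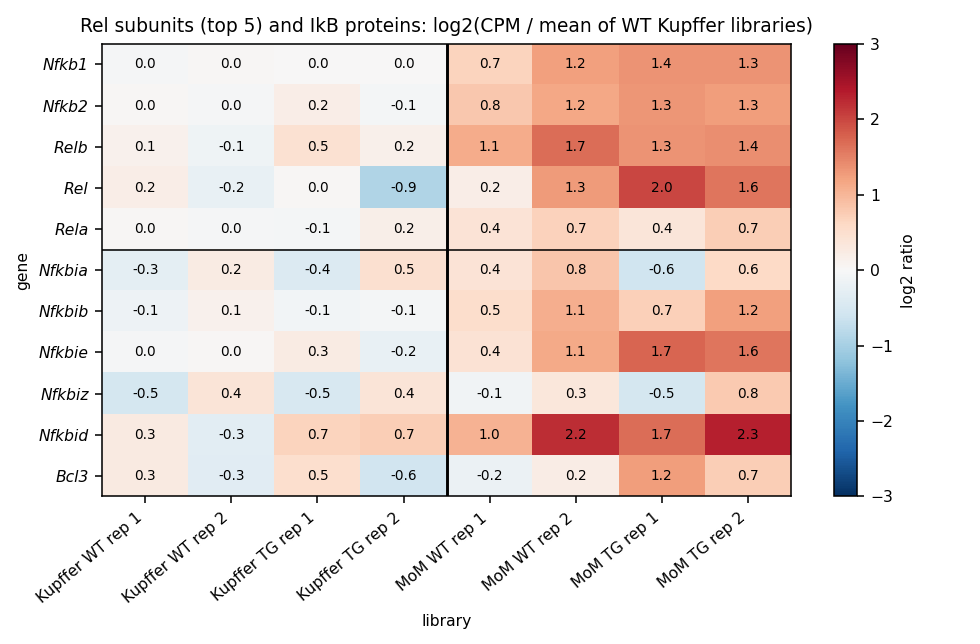
Log2 ratio of the CPM in each library (columns) to the mean of both WT Kupffer libraries for 5 Rel subunits (top rows) and 6 IκB proteins (bottom rows), with the value in each cell. Nfkb1, Nfkb2 and Relb are positive in all 4 MoM libraries, whereas Nfkbia and Nfkbiz change sign between replicates of TG MoM.

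TG against WT in MoM gave the smallest p among these lists to N4bp1 (0.89 ± 0.17, adjusted p = 0.621), Il4ra (0.79 ± 0.22, adjusted p = 0.755) and Tnfrsf1b, a TNF receptor (1.14 ± 0.32, adjusted p = 0.755), none of them called. Tnfrsf1b also had the smallest p in the interaction (1.67 ± 0.45, adjusted p = 0.626), before Ikbkb (0.85 ± 0.31) and Bcl6 (0.97 ± 0.36).

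Likeness was measured by root mean square difference of centred log2 levels over the 8 libraries. Among all 15254 genes Nfkb1 and Nfkb2 were nearest to each other (0.101 both ways, against own deviations of 0.61 and 0.57). Other genes were nearly as close or level: Hmgb2 (0.102) and Baz2b (0.108) to Nfkb1, and Dpy19l1 (0.101) and Gm10052 (0.105) to Nfkb2. The pair therefore did not stand apart from other genes. Nearest to Relb were Rps9 (0.11) and Herpud1 (0.12). Nearest to Nfkbiz was Zfp36 (0.15), which encodes a protein that destabilises Tnf mRNA and is also on the list of dissociation stress genes. Nearest to Tnfaip2 was Mpeg1 (0.13), a pore-forming protein of macrophages. Nearest to Il10 were Oasl1 (0.41) and Il1a (0.53), and nothing came closer to Tnf than 0610009E02Rik (0.39, against an own deviation of 0.98). Of the other 9 genes the one nearest to Tnf was Nfkbia (0.56).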

How the data were processed

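PolyA RNA of liver macrophages was sequenced in 8 libraries, grouped and numbered by their titles. The authors deposited raw counts, 1 whole number per gene symbol. The aligner was STAR 2.5.2b and the build mm10, per the submitters' processing notes. No source used here names the counter, its annotation or its strand setting. Of counts from 1 to 19, 66.8% were even; whether both mates of a fragment were counted was not tested. The authors also deposited a table of 179 genes with, per the file headers, a mean of normalized counts and a Wald statistic (scores), a log2 fold change, a p-value and its adjusted value, with no cell type named; it was used only to look for the 10 genes.

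All 8 libraries and 4 groups were fitted together in edgeR 4.0.16 (R 4.3.3): filterByExpr, which left 15254 genes and all 10 members, TMM scaling and the quasi-likelihood F-test, with Benjamini-Hochberg adjustment over all genes and calls at an adjusted p below 0.05. The SE is the log2 fold change divided by the square root of F, and 95% intervals use the fit's total degrees of freedom (4 residual and 2.37 prior). The code was tested on simulated data, where changes of the smallest simulated size were not called. Alternatives were size factors, no low-count filter, a replicate block, only the 4 libraries compared, DESeq2 1.42.0 and each library left out. A further one left out Kupffer TG replicate 2 and MoM WT replicate 1 together, named here both libraries rich in RNA of other cells. That setting kept MoM TG replicate 2, which held 4229 CPM of neutrophil markers, so it did not remove all such RNA. Positions and exon lengths came from GENCODE M21 (GRCm38), promoters from RefSeq. The likeness measure used log2(CPM + 0.5). Figures used matplotlib 3.10.9 in Python 3.11.15.

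The 10 genes, the wider lists and the alternatives were chosen with earlier results of these data known. Named from the wider lists were called genes, up to 6 a comparison by smallest p, or the 3 smallest p where none was called; the 3 nearest genes of each member were computed. Genes named outside this rule are marked as chosen after their values were seen.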

Additional observations from a re-analysis of the deposited data

How the results depend on the processing

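Scaling by median-of-ratios size factors moved the median of all genes by at most 0.04 on the log2 scale. Over 50 results (10 genes in 5 comparisons) and 690 alternative values, 582 kept their direction and side of the threshold, 24 came under it, 11 lost it and 73 changed sign; no value with an adjusted p below 0.05 changed sign. Counts of called genes depended on single libraries and on the tool. With 2 libraries a group, the intervals of Tnf and Il10 allow differences of several-fold.

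DESeq2 called 251 genes for TG against WT in Kupffer cells, 141 in MoM, 2867 for MoM against Kupffer cells in WT, 2563 in TG and 47 in the interaction. In WT 1585 genes were called with only the 4 libraries compared and 2677 without both libraries rich in RNA of other cells, and in TG 0 and 2130. With libraries left out in turn the counts were 0 to 257 for TG against WT Kupffer cells (257 without Kupffer TG replicate 1), 0 to 1434 for the subsets in WT, 0 to 1026 in TG and 0 to 83 in the interaction. Of the 10 genes, the number called in WT was 0, and 4 with DESeq2, 1 with only 4 libraries, 4 without both rich libraries and 0 to 2 with libraries left out. In TG it was 1, and 0 with size factors, with no low-count filter, with the replicate block or with only 4 libraries, 4 with DESeq2, 2 without both rich libraries and 0 to 3 with libraries left out. The cause was not tested.

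Replicate numbers pair nothing in the labels. Across genes, replicate differences correlated between groups from -0.135 for Kupffer WT with MoM WT to 0.619 for Kupffer TG with MoM TG. The main fit held no term for replicate, and what lies behind the higher value was not tested. The replicate block called 234 genes in WT and 301 in TG, 0 in the other comparisons, and ended the Nfkb2 call in TG (adjusted p = 0.0588).

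Signs changed for TG against WT Kupffer cells without both rich libraries in Tnf (-0.12), Il10 (-0.14), Tnfaip2 (0.25), Tnfaip3 (-0.025), Nfkbia (-0.36) and Nfkbiz (-0.43). With libraries left out the ranges were -0.12 to 1.60 for Tnf, -0.14 to 1.69 for Il10, -0.81 to 0.25 for Tnfaip2, -0.025 to 0.39 for Tnfaip3, -0.36 to 0.47 for Nfkbia, -0.43 to 0.52 for Nfkbiz, -0.022 to 0.060 for Nfkb1 and -0.096 to 0.26 for Nfkb2. For TG against WT MoM, Tnf became -0.0021 with size factors, -0.0042 with no filter, -0.48 with the replicate block, -0.0025 with DESeq2 and -0.26 without both rich libraries, where Il10 became 0.39 and Nfkbiz -0.088. With libraries left out the ranges were -2.13 to 0.87 for Tnf, -3.47 to 0.45 for Il10, -0.65 to 0.68 for Nfkbiz and -0.31 to 0.26 for Relb.

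For MoM against Kupffer cells in WT, Il6 became -0.0015 with size factors, -0.024 with no filter, -0.00056 with DESeq2 and -0.037 with only 4 libraries. With libraries left out the ranges were -0.45 to 0.58 for Il6, -2.24 to 0.27 for Il10 and -0.29 to 0.59 for Nfkbiz. In TG, Tnf became -0.070 with the replicate block, and Nfkbia became -0.038 with size factors, -0.059 with no filter, -0.023 with the block, -0.039 with DESeq2 and -0.0018 with only 4 libraries. With libraries left out the ranges were -2.02 to 1.17 for Tnf, -0.47 to 0.14 for Il6, -0.70 to 0.49 for Nfkbia and -0.54 to 0.79 for Nfkbiz. In the interaction, Il10 became 0.53 and Nfkb2 -0.15 without both rich libraries, and the ranges were -3.12 to 0.11 for Tnf, -0.80 to 0.23 for Il6, -0.19 to 0.40 for Tnfaip3 and -0.66 to 0.67 for Nfkbiz.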

Other observations

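The library numbered 2 had more RNA than the library numbered 1 in 4 of 4 groups for Tnf, Tnfaip3, Nfkbia and Nfkbiz. Of all tested genes, 10.7% showed this order in all 4 groups and 9.54% the opposite one. Nfkb1, Nfkb2 and Relb did not, with replicate 2 higher in 2, 1 and 2 of the 4 groups. The labels do not say what a replicate number stands for, and this was seen after the values were known.

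In MoM TG replicate 1, the library with the least Tnf and Il10, counts of Nfkbia per count of Tnf were 11.2, against 3.20 in replicate 2 and 5.82 to 6.25 in WT MoM. In the Kupffer libraries this ratio was 3.76 in TG replicate 2 and at most 8.29 in the other 3. Counts of Tnfaip3 per count of Nfkbia were highest in the same MoM library (2.16) and lowest in MoM WT replicate 2 (0.838).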
